A study of Mus musculus with 32 samples.

Results

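The genotype by M-CSF interaction without LPS asks whether macrophages that lack Trem2 differ from wild-type macrophages by the same amount in low M-CSF as in normal M-CSF. For each gene it is the log2 ratio of Trem2 knockout (T2KO in the labels) to wild type (WT) in low M-CSF minus the same log2 ratio in normal M-CSF, so a value of 0 means equal genotype effects on the log2 scale. It used 16 of the 32 libraries of the series, those whose titles say that no LPS was given. They form 4 groups of 4 libraries: T2KO cells in low M-CSF (T2KO-low), WT cells in low M-CSF (WT-low), T2KO cells in normal M-CSF (T2KO-normal) and WT cells in normal M-CSF (WT-normal). All were bone marrow-derived macrophages, cells grown from mouse marrow into macrophages, and T2KO and WT mice alike are labelled C57BL/6. The knockout line is credited in the labels to Turnbull and colleagues and is not restricted to a cell type there, and age and sex of the mice are not given. The cells spent the night before harvest in complete RPMI with LCCM at 0.5% or 10%. No label joins these percentages to the words low and normal, so reading low M-CSF as the smaller percentage is an inference. How many mice were used, and whether replicate libraries are separate cultures or animals, is not said in the labels, so a p-value here measures only the spread between these libraries, which may be technical.

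TREM2 is a lipid-binding receptor of macrophages and microglia that signals through the adaptor DAP12 and the kinase SYK. M-CSF, through its receptor CSF1R, keeps macrophages alive and drives their division, and CSF1R signalling has been tied to the same DAP12 and SYK module. When a cell enters S phase, E2F factors raise the genes of DNA replication. Genes of mitosis peak later and are read out through CHR elements by the MuvB complex with B-MYB and FOXM1, while CHR elements hold them down in resting cells. Their promoters often hold CCAAT elements too.

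Total counts per library ran from 4748813 to 15585423, and 12098 to 13314 genes had a count. A true level that gives 3 counts, the most that an observed 0 allows at 95% confidence, lay between 0.198 and 0.626 CPM (counts scaled to a common library size, with TMM factors), for counting error only. Depth moved with the interaction: it averaged 10363500 in T2KO-low, 5945756 in WT-low, 6593374 in T2KO-normal and 9426353 in WT-normal. Libraries 1 and 3 of a group tended to resemble each other, as did libraries 2 and 4. Divided by its degrees of freedom, the chi-square between their counts was 4.59 to 6.57 in 6 of these 8 pairs, 17.8 for libraries 2 and 4 of WT-low and 37.3 for libraries 1 and 3 of WT-normal, against 14.7 to 81.5 in the 16 other pairs. Every pair thus differed by more than sampling noise, yet the labels do not say whether the pairs were repeat preparations of 1 sample, and the leading counts are given both for 4 libraries and for 2 summed pairs per group. All 27 genes of the macrophage identity list had counts and were tested. Of the markers of other cells, 0 of 9 mast cell genes, 1 of 12 stromal genes and 2 of 12 lymphocyte genes reached the level needed for testing. Cd3g, Cd8a and the haemoglobin genes were at 0 in all 16 libraries. More markers reached that level in other lists, 15 of 18 neutrophil, 10 of 11 inflammatory monocyte, 7 of 10 osteoclast and 4 of 11 dendritic cell genes. Of 11 erythroid and megakaryocyte genes 6 were at 0 throughout, while Pf4 held 82723 counts in total. Whether other cells were present was not tested.

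Trem2 had reads in every library. The libraries sample 3' ends, and where the deletion lies is not given in the sources used here, so residual reads do not show a receptor. Trem2 stood at 143, 120.4, 159 and 134 CPM in T2KO-low, against 549, 470.0, 641 and 642 CPM in WT-low. In normal M-CSF it stood at 40.0, 46.9, 46.4 and 54.8 CPM in T2KO-normal, against 462, 330.1, 406 and 369.8 CPM in WT-normal. The genotypes did not overlap in either medium, and all 8 knockout libraries had the lower level, the direction of their label. The residual level in the knockout was 24.2% of WT in low M-CSF and 12.0% in normal M-CSF. Trem2 (chr17:48346401-48352276 in GRCm38, the mm10 build) therefore passed the interaction test with the other sign from most genes, at log2 1.01 ± 0.23 (SE, adjusted p = 0.0113, edgeR quasi-likelihood F test with Benjamini-Hochberg adjustment over all genes). Measured in CPM rather than as a ratio, the loss of Trem2 was larger in low M-CSF, by 91.8 CPM (difference of differences of -91.8). The call was lost when libraries were summed in pairs. Treml1, a neighbouring gene of the same receptor family (chr17:48359916-48367176), was higher in the knockout in both media, at 14.5 ± 1.33 CPM in T2KO-low against 2.08 ± 1.34 CPM in WT-low, and at 5.74 ± 0.964 CPM in T2KO-normal against 1.25 ± 0.729 CPM in WT-normal (SD, n = 4 each). Its interaction, 0.59 ± 0.56, did not pass (adjusted p = 0.643, edgeR).

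The genotype effect differed between the media for 494 of 11131 genes tested (4.44%; adjusted p under 0.05, edgeR), and 1956 genes had an unadjusted p under 0.05. In 394 of them (3.54% of genes tested) the interaction was negative, so T2KO stood lower against WT in low M-CSF than in normal M-CSF, and in 100 (0.898%) it was positive. Over all genes tested the median interaction was -0.00, a value that TMM scaling keeps near 0. The negative genes had a median interaction of -1.55 (quartiles -2.21 and -1.17), made of a median genotype effect of -1.65 in low M-CSF and -0.01 in normal M-CSF. The positive genes had a median of 1.24 (quartiles 1.01 and 1.53), with a median genotype effect of 0.84 in low M-CSF and -0.45 in normal M-CSF.

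Of the 494 genes, 446 (90.3%) had the larger genotype effect in low M-CSF, 371 of the 394 negative ones and 75 of the 100 positive ones. This share was 70.3% of the calls made with libraries 1 and 3 only and 52.9% of those made with libraries 2 and 4 only. It was not computed over all genes tested, so it has no background beside it. The 494 genes were chosen by the difference of the 2 genotype effects. The share and the classes that follow are partly set by that choice. Among the negative genes, 349 passed the genotype test in low M-CSF alone, 8 in normal M-CSF alone, 22 in both with one sign, 2 in both with opposite signs and 13 in neither. The positive genes split into 71, 8, 4, 1 and 16 over the same classes. For scale, 18.0% of all genes passed the genotype test in low M-CSF and 1.9% in normal M-CSF, and the 4 libraries of T2KO did not overlap the 4 of WT for 21.5% of genes in low and 8.57% in normal M-CSF. Read the other way, as a medium effect within each genotype, the negative genes were lower in low than in normal M-CSF by a median log2 of -2.59 in T2KO and -0.82 in WT, and the positive genes differed by 1.33 in T2KO and -0.07 in WT. With libraries summed in pairs, 2 per group, 117 of 11881 genes passed (0.985%), 115 negative (0.968%) and 2 positive (0.0168%). With log2 depth as a covariate, chosen after seeing the data, 705 genes passed (6.33%), 529 negative (4.75%) and 176 positive (1.58%), with 304 of the 394 and 51 of the 100 among them. DESeq2 called 803 genes (7.21%), 595 negative (5.35%) and 208 positive (1.87%), and voom with a correlation within pairs called 83 (0.746%), 79 negative (0.71%) and 4 positive (0.0359%).

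**Figure D1:**
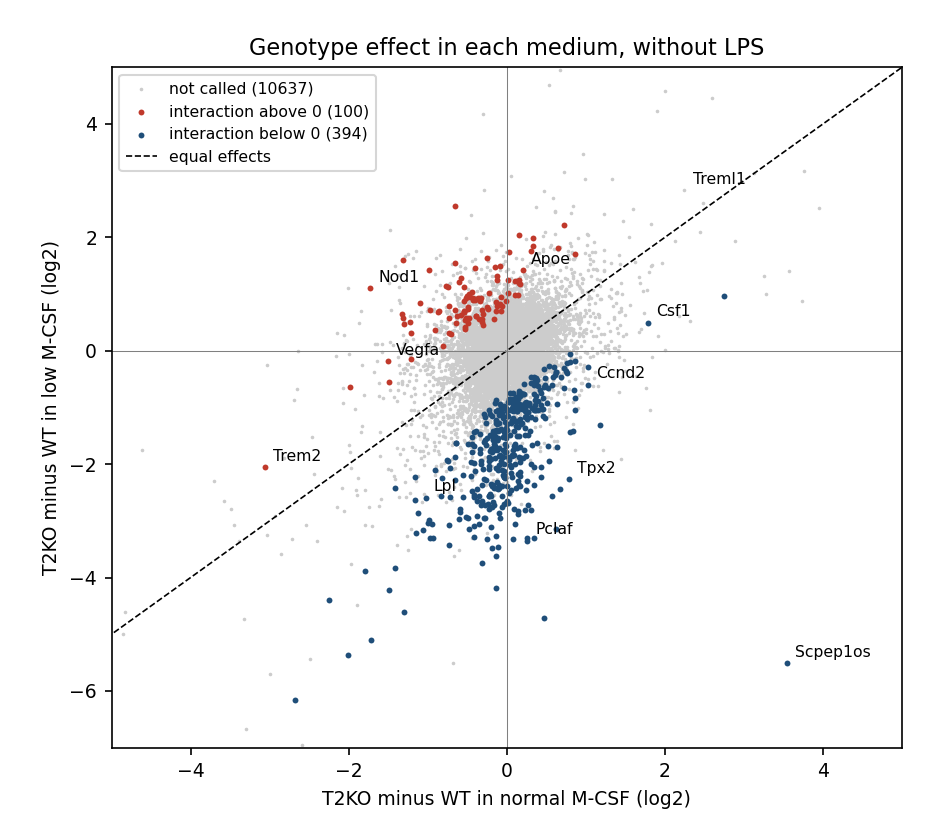
Genotype effect (T2KO minus WT, log2) of each of 11131 genes in low M-CSF (vertical axis) against normal M-CSF (horizontal axis). Blue points are the 394 genes with a negative interaction, red points the 100 with a positive one and grey points the rest; the dashed line marks equal effects, and 8 genes that were not called lie outside the axes. Most blue points sit near 0 on the horizontal axis and well below 0 on the vertical one.

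**Figure D2:**
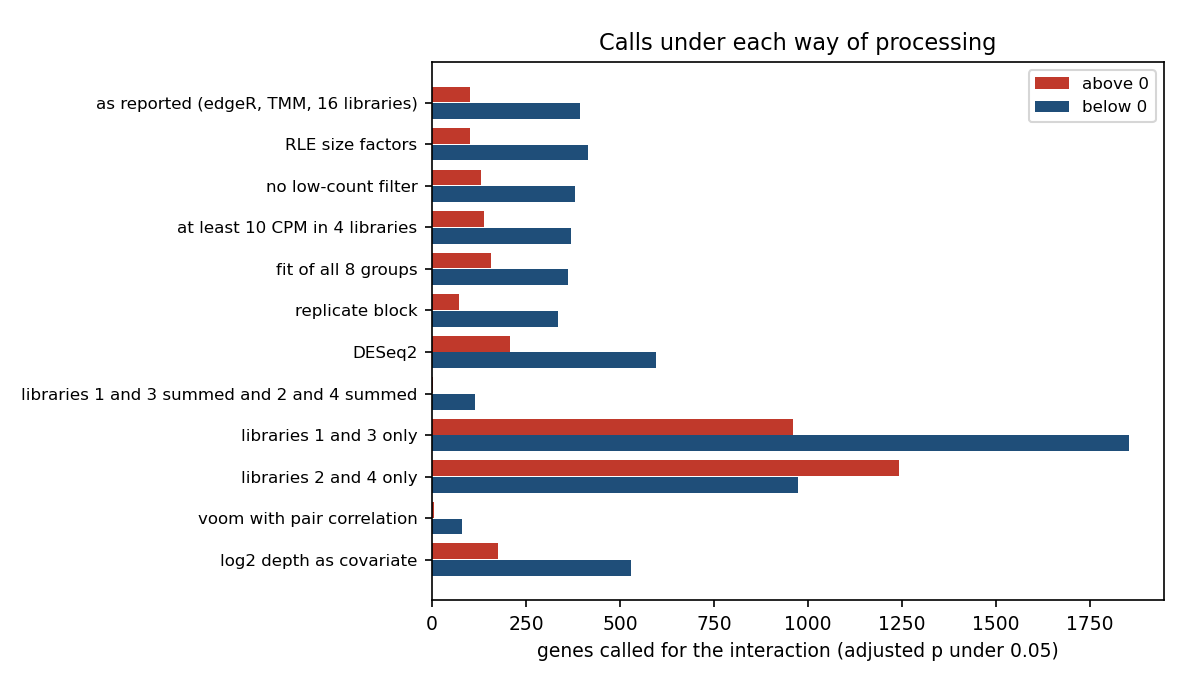
Number of genes with a positive (red) and a negative (blue) interaction under each way of processing, each bar starting at 0. The negative count is the higher one in every setting shown except libraries 2 and 4 only, where 974 were negative and 1243 positive; summed pairs left 115 and 2.

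Of 41 gene lists, the 2 of cell division held the most called members. Of 31 genes of DNA replication and S phase, 21 had a negative interaction and none a positive one, and of 30 genes of mitosis and cytokinesis, 26 were negative and none positive, where 3.54% of all genes were negative. Their median interactions were -1.43 and -1.995, against -0.00 over all genes. In normal M-CSF the lists had median genotype effects of -0.14 and -0.09 and no member called, where 1.06% of all genes were called lower, whereas in low M-CSF the medians were -1.43 and -2.13 and 28 of 31 and 29 of 30 members were lower in T2KO, beside 10.6% of all genes. In bulk RNA, fewer dividing cells and less of these transcripts per cell cannot be told apart. With summed pairs 6 S phase genes and 15 mitotic genes passed, and without any one library the counts stayed between 16 and 22 and between 24 and 27.

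Among the replication genes, Uhrf1, which keeps DNA methylation through replication (chr17:56303337-56323486), had the smallest p. It was at 1.65, 1.77, 1.44 and 2.37 CPM in T2KO-low, against 28.2, 21.2, 22.5 and 11.5 CPM in WT-low, and at 61.8, 79.0, 65.1 and 82.8 CPM in T2KO-normal, against 88.5, 82.2, 77.6 and 80.3 CPM in WT-normal. The genotypes were far apart in low M-CSF and overlapped in normal M-CSF, and the interaction was -3.30 ± 0.32 (SE, adjusted p = 4.68e-06, edgeR). Mcm5, a subunit of the MCM replicative helicase (chr8:75109468-75128439), was at 2.56, 3.09, 2.99 and 2.31 CPM in T2KO-low, against 15.1, 15.4, 15.6 and 12.3 CPM in WT-low. In normal M-CSF it was at 73.9, 92.4, 75.6 and 96.3 CPM in T2KO-normal, against 96.4, 87.2, 94.97 and 84.5 CPM in WT-normal. Both genotypes thus had much less Mcm5 in low M-CSF, and T2KO less than WT, with an interaction of -2.31 ± 0.23 (adjusted p = 5.64e-06, edgeR). Of the other helicase subunits, Mcm3, Mcm4, Mcm6 and Mcm7 were negative at -1.19, -1.39, -1.14 and -1.31, and Mcm2 had -1.03 and did not pass. Ccne2, the cyclin that drives entry into S phase (-3.43), Mcm10, which helps fire origins (-2.91), the ribonucleotide reductase subunits Rrm2 and Rrm1 (-2.47 and -1.50) and thymidine kinase Tk1 (-1.81) were negative as well. Pcna, the sliding clamp, had the smallest negative value that passed, -0.78. The 10 members that did not pass included Gins2 at -1.07, Cdc45 at -0.96, E2f1 at -0.52 and Rfc3 at 0.07.

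Among the mitotic genes, Tpx2, a spindle assembly factor that activates Aurora A (chr2:152847964-152895321), was at 7.88, 26.1, 26.8 and 27.99 CPM in T2KO-low, against 129.9, 134, 90.3 and 76.9 CPM in WT-low. Its normal M-CSF levels were 394, 461, 368 and 368 CPM in T2KO-normal, against 189.7, 249.7, 242 and 242 CPM in WT-normal. Knockout libraries were therefore the lower ones in low M-CSF and the higher ones in normal M-CSF, without overlap in either, and the interaction was -3.05 ± 0.38 (adjusted p = 4.19e-05, edgeR); its effect in normal M-CSF, 0.78, did not pass alone. Ccna2, the cyclin of S phase and early mitosis (chr3:36564865-36573038), was at 4.58, 7.33, 10.8 and 8.17 CPM in T2KO-low, against 43.4, 53.8, 36.3 and 27.7 CPM in WT-low. Its levels in normal M-CSF overlapped, at 106, 134, 117 and 151.2 CPM in T2KO-normal and 148, 124, 142 and 128 CPM in WT-normal. The interaction of Ccna2 was -2.27 ± 0.31 (adjusted p = 0.000103, edgeR). Top2a, which untangles chromosomes (-2.76), the motor proteins Kif23 and Kif11 (-2.67 and -2.31), the checkpoint kinases Bub1b and Bub1 (-2.55 and -2.49) and Ube2c, the ubiquitin-conjugating enzyme of the anaphase-promoting complex (-2.54), were of similar size. Ccnb2 at -1.48, Mki67 at -1.17, Anln at -1.09 and Cenpa at -0.45 did not pass.

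Of the 8 genes with the most negative values and a mean of at least 5 CPM in some group, Ccne2 is given above, and Scpep1os (-9.05), Klra2 (-3.65) and Map1a (-3.49) are described further on. Pclaf, a PCNA-binding protein of replicating cells, was at 19.3 ± 6.82 CPM in T2KO-low against 199.6 ± 97.3 CPM in WT-low, and at 642 ± 37.8 CPM in T2KO-normal against 537 ± 54.7 CPM in WT-normal (SD, n = 4 each), an interaction of -3.61 ± 0.38. Chek1, the replication checkpoint kinase, had -3.55 ± 0.45, and Esco2, the acetyltransferase that locks sister chromatids together, -3.47 ± 0.56. Recql4, a replication helicase, was at 0, 0.265, 0 and 0.198 CPM in T2KO-low, at or under the level that 3 counts give, against 2.56, 10.1, 0.726 and 2.92 CPM in WT-low. Its fitted value of -5.17 ± 1.001 (SE) depends on how near-zero counts are handled.

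**Figure D3:**
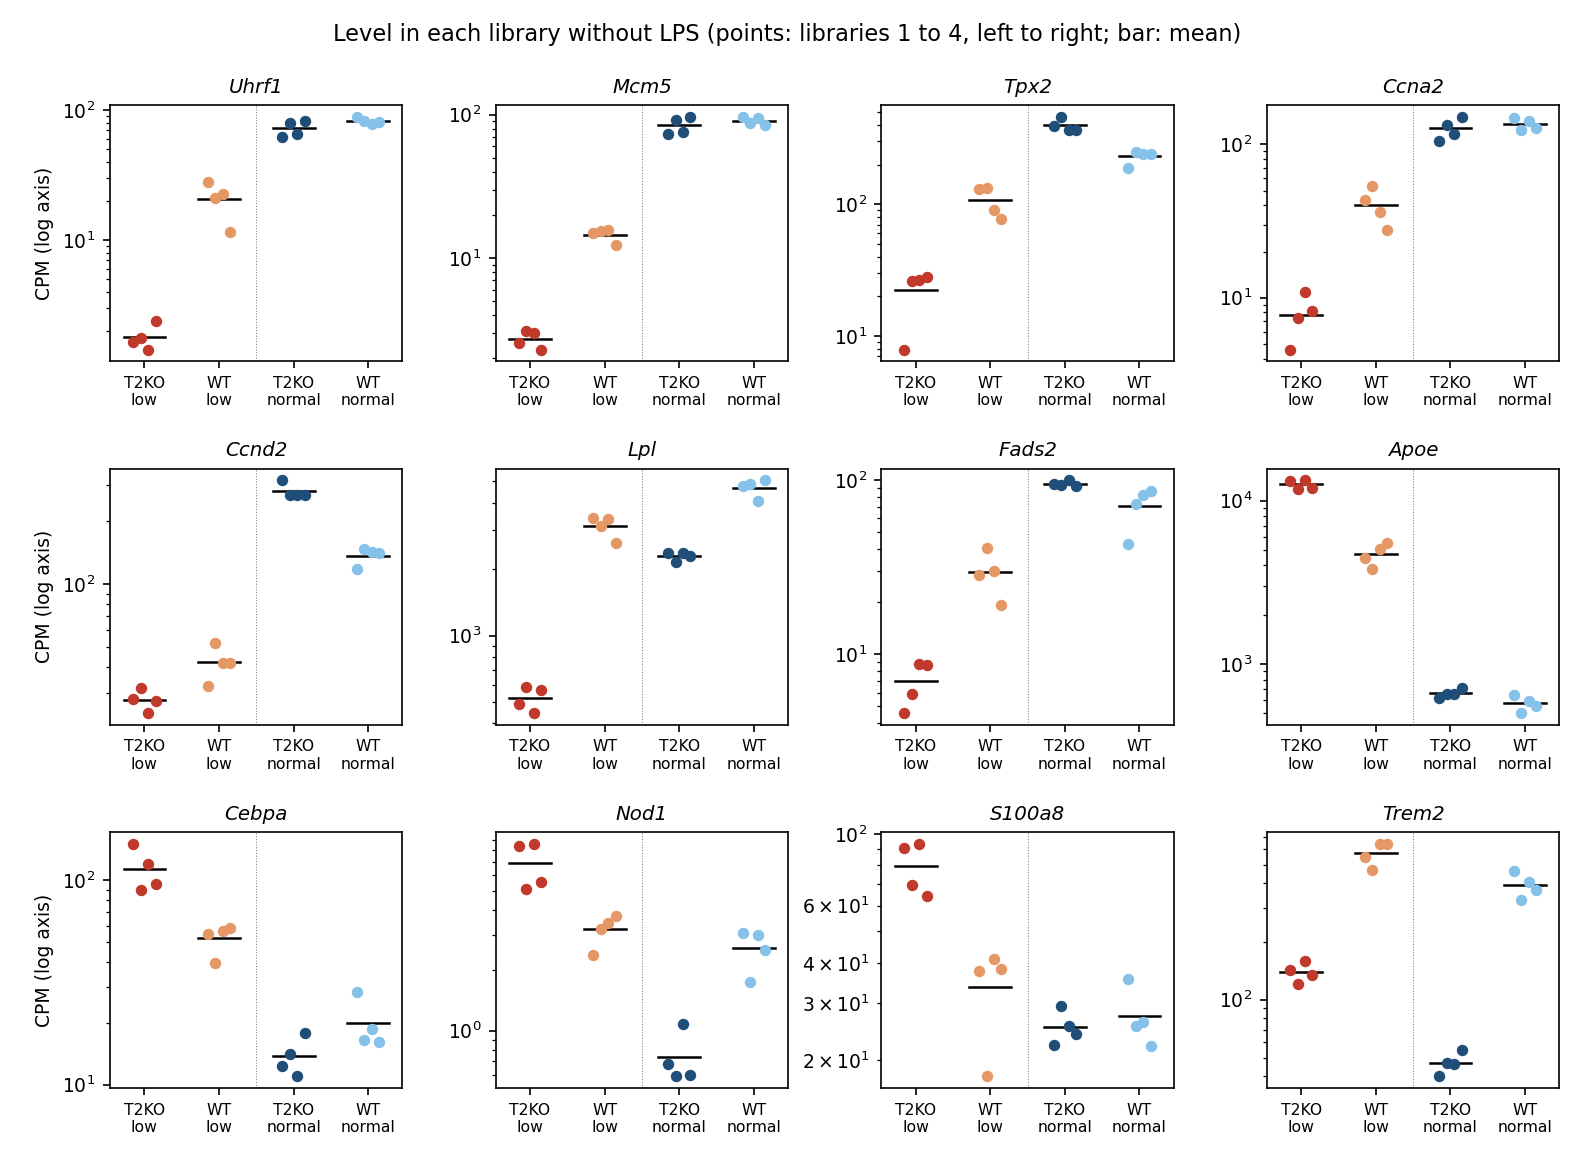
Level of 12 named genes in each of the 16 libraries, in CPM on a log axis, with libraries 1 to 4 from left to right and the group mean as a bar. Uhrf1, Mcm5, Ccna2, Lpl and Fads2 show the low T2KO-low group beside a smaller genotype gap in normal M-CSF; Tpx2, Ccnd2 and Nod1 have the genotypes in opposite order in low and normal M-CSF.

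The promoters of the dividing-cell genes were read for the elements named above, to show which sequence features the called members share. Members of these lists that were not called were not compared, so the shares cannot tell list membership from the interaction. RefSeq windows (GRCm38.p6, 250 bases before to 50 after the start) were listed for 9025 of the 11131 genes, for 18 of the 21 negative replication genes and for 21 of the 26 negative mitotic genes. The E2F words searched were TTTCCCGC, TTTCGCGC, TTTGCCGC and TTTGGCGC, the CHR word was TTTGAA, and CCAAT was searched as such, each on both strands. An E2F word stood in 7 of 18 replication windows (38.9%), in 1 of 21 mitotic windows and in 4.44% of all windows. The CHR word stood in 15 of 21 mitotic windows (71.4%), in 1 of 18 replication windows and in 12.0% of all windows. CCAAT stood in 19 of 21 mitotic windows (90.5%), in 12 of 18 replication windows (66.7%) and in 39.5% of all windows. A match is a description of the letters and not a site shown to be bound. Only the first-listed window of a gene was read. The windows of 3 helicase subunits follow, picked from called replication genes whose window holds an E2F word, so its presence in them is by choice. They are on the strand of each gene and 5′ to 3′, with every E2F word in capitals. In Mcm5 and in the first match of Mcm6 a pair of words on opposite strands overlap.
Mcm5 (chr8:75109259-75109558, plus strand): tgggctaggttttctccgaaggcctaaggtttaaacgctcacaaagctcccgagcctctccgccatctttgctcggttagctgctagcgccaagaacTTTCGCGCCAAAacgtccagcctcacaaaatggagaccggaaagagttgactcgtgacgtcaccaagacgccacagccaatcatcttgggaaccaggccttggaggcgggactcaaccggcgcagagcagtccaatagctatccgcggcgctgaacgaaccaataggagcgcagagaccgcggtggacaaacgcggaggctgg
Mcm6 (chr1:128359656-128359955, minus strand): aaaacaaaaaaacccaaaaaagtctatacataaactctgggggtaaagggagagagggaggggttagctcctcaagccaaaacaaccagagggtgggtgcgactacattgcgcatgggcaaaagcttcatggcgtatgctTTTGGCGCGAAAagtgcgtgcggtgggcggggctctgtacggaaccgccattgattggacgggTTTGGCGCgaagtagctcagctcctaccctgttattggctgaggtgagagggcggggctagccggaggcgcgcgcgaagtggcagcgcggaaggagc
Mcm7 (chr5:138171834-138172133, minus strand): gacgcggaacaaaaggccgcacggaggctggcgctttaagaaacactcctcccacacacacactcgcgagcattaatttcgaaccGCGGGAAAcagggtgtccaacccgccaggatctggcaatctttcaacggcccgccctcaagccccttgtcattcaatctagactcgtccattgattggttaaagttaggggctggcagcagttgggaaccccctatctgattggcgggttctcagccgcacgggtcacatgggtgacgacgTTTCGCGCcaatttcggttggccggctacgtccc

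The windows of 3 mitotic genes follow, picked in the same way from called members whose window holds the CHR word, shown in capitals. In Ube2c it reads as its reverse complement, 29 bases before the start.
Bub1b (chr2:118597961-118598260, plus strand): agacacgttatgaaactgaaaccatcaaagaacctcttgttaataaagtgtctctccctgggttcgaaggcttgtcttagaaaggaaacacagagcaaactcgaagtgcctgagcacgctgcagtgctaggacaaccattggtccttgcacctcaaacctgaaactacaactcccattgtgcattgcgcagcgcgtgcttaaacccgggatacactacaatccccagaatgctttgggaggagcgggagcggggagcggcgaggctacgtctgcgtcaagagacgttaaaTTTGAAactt
Kif23 (chr9:61946750-61947049, minus strand): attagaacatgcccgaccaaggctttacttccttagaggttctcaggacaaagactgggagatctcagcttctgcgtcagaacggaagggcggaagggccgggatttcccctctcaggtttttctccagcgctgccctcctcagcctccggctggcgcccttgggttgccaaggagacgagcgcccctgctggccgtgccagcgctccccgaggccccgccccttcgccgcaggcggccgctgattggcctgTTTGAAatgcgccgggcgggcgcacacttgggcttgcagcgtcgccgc
Ube2c (chr2:164769679-164769978, plus strand): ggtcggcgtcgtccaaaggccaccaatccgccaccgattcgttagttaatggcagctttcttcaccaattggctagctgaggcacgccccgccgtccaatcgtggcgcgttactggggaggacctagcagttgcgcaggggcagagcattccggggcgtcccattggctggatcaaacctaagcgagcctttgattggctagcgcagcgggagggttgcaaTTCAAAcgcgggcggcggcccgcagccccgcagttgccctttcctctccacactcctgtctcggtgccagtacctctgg

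A word could be found only near the start, since the windows reach no further. Those of Mcm5 begin 153 and 149 bases before the start, and those of Bub1b and Kif23 begin 40 and 2 bases after it. Beside them stand the interactions of the 6 genes, -2.31 for Mcm5, -1.14 for Mcm6, -1.31 for Mcm7, -2.55 for Bub1b, -2.67 for Kif23 and -2.54 for Ube2c. Over all 314 negative genes with a window, the E2F words stood in 7.96% and the CHR word in 25.8%; over the 84 positive genes with a window, in 1.19% and 9.52%.

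**Figure D4:**
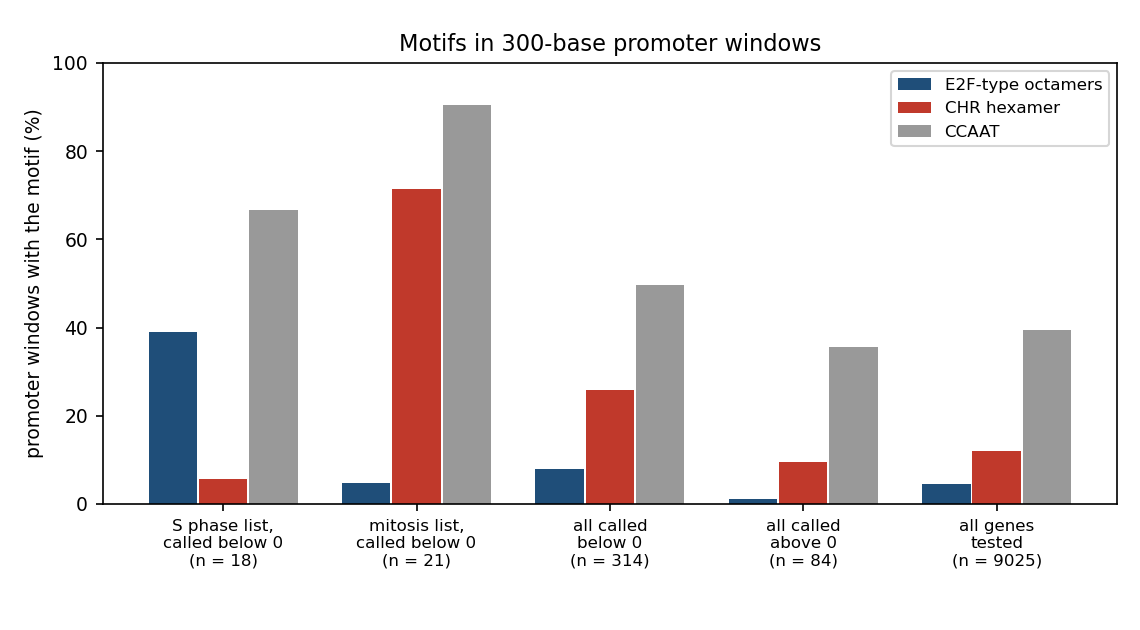
Share of promoter windows of 300 bases that hold each motif on either strand, for the called replication genes (n = 18), the called mitotic genes (n = 21), all negative genes (n = 314), all positive genes (n = 84) and all genes tested with a window (n = 9025). The E2F bar is tallest in the replication genes and the CHR bar in the mitotic genes.

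Lipid metabolism held negative and positive interactions. Of 25 genes of cholesterol synthesis, 3 were negative and none positive, beside 3.54% and 0.898% of all genes, and all 25 values were below 0, with a median of -0.44. In low M-CSF 12 of the 25 were lower in T2KO, beside 10.6% of all genes, and none was called in normal M-CSF. The negative count was 0 with summed pairs, 1 with voom and 11 with libraries 2 and 4 only, where the median was -0.81. Stard4, which carries cholesterol between membranes, was at 31.7, 36.9, 33.2 and 38.2 CPM in T2KO-low, against 81.3, 93.5, 80.0 and 87.8 CPM in WT-low. Normal M-CSF gave 90.0, 85.3, 100.6 and 84.0 CPM in T2KO-normal, against 81.2, 77.9, 78.1 and 80.0 CPM in WT-normal. T2KO-low was the one group that stood apart, and the interaction was -1.47 ± 0.19 (SE, adjusted p = 7.09e-05, edgeR). Hsd17b7, an enzyme of the later steps of the pathway, had -1.38.

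Of 17 fatty acid genes 3 were negative (median -0.33), beside 3.54% of all genes, and 1 was negative with summed pairs or voom. Fads2, the desaturase that starts polyunsaturated fatty acid synthesis (chr19:10062765-10101503), was at 4.58, 5.92, 8.74 and 8.69 CPM in T2KO-low, against 28.5, 40.5, 29.7 and 19.2 CPM in WT-low. It was at 94.2, 93.4, 99.3 and 92.1 CPM in T2KO-normal, against 42.7, 72.2, 81.5 and 85.8 CPM in WT-normal, an interaction of -2.48 ± 0.34 (adjusted p = 0.000109, edgeR). The knockout was the lower genotype in low M-CSF and the higher one in normal M-CSF, though the effect in normal M-CSF, 0.43, did not pass. Scd2, a stearoyl-CoA desaturase, had -1.47 ± 0.28. Srebf1, the master regulator of fatty acid synthesis, had -0.90 ± 0.26, but its call passed in 2 of the 16 fits that each left out 1 library.

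Lpl, the lipase that frees fatty acids from lipoproteins (chr8:68880555-68906932), was lower in the knockout in both media and more so in low M-CSF. It stood at 491, 583, 446 and 569 CPM in T2KO-low, against 3424, 3149, 3374 and 2624 CPM in WT-low, and at 2372, 2163, 2362 and 2308 CPM in T2KO-normal, against 4779, 4867, 4069 and 5059 CPM in WT-normal. The genotypes did not overlap in either medium, with effects of -2.59 and -1.03 and an interaction of -1.56 ± 0.20 (adjusted p = 6.83e-05, edgeR). Apoe, the apolipoprotein that carries cholesterol out of macrophages (chr7:19696244-19701310), went the other way. It was at 13192, 11843, 13284 and 11971 CPM in T2KO-low, against 4455, 3780.1, 5045 and 5458 CPM in WT-low. In normal M-CSF it was at 613, 657, 649 and 711 CPM in T2KO-normal, against 646, 499, 594 and 553 CPM in WT-normal, where the genotypes overlapped. The interaction of Apoe was 1.23 ± 0.20 (adjusted p = 0.00071, edgeR). Neither Lpl nor Apoe passed with summed pairs (adjusted p = 0.0686 and 0.188, edgeR). Pltp, a phospholipid transfer protein and LXR target, had 0.94 ± 0.26, with a call that passed in 6 of 16 fits without 1 library. Apoc1 and Apoc2, neighbours of Apoe, had 2.01 and 1.29 and did not pass. Of 16 LXR targets 2 were positive and 2 negative, beside 0.898% and 3.54% of all genes, and the median of -0.11 was near that of all genes.

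Some genes that supply amino acids and nucleotides were negative. Mthfd2, the mitochondrial one-carbon enzyme, was at 16.9, 13.2, 10.1 and 16.6 CPM in T2KO-low, against 33.1, 61.6, 43.2 and 41.7 CPM in WT-low. It was at 425, 387, 368 and 378 CPM in T2KO-normal, against 246, 391, 219.8 and 388 CPM in WT-normal, an interaction of -1.99 ± 0.31 (adjusted p = 0.00049, edgeR). Low M-CSF went with a large drop in both genotypes and a larger one in T2KO, the medium effects being -4.78 in T2KO and -2.79 in WT. Asns, which makes asparagine, had -1.46 ± 0.31, the arginine carrier Slc7a1 -1.35 and the serine enzyme Psat1 -1.23. These 4 were the called ones among 24 targets of ATF4 and amino acid stress (median -0.16), where 3.54% of all genes were negative. Atf4 itself had 0.73 and did not pass. Tyms, which makes thymidylate, had -1.77 ± 0.34. Of 28 genes of the pentose phosphate and nucleotide list 3 were called, all negative (median -0.08), beside 3.54% of all genes, and Mthfd2 counts there as well.

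Of the receptors and adhesion molecules, Ccr2, the receptor that brings monocytes to CCL2, was at 155, 166, 194 and 179.7 CPM in T2KO-low, against 625, 624, 615 and 525 CPM in WT-low. It was at 92.3, 100.8, 80.9 and 86.2 CPM in T2KO-normal, against 78.2, 140.4, 107 and 163 CPM in WT-normal. WT-low was the high group, and the interaction was -1.34 ± 0.26 (adjusted p = 0.00304, edgeR). Gpr183, an oxysterol-sensing receptor, was also highest in WT-low, at 87.5 ± 5.36 CPM in T2KO-low against 246 ± 23.2 CPM in WT-low, and 118 ± 14.0 CPM in T2KO-normal against 136 ± 12.6 CPM in WT-normal (SD, n = 4 each), an interaction of -1.28 ± 0.21. P2ry12, an ADP receptor that marks microglia, was positive at 1.10 ± 0.29, with a call that passed in 8 of 16 fits without 1 library. These were the 3 called of 18 chemoattractant receptors, beside 4.44% of all genes.

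In the adhesion and matrix list 3 of 36 were negative and 1 positive, beside 3.54% and 0.898% of all genes. Spp1, the secreted protein osteopontin, had -1.03 ± 0.27, the integrin chain Itgb7 -1.01 ± 0.27 and the sheddase Adam8 -0.88, and the calls of Spp1 and Itgb7 passed in 8 and 7 of 16 fits without 1 library. Mmp13, a collagenase, was at 19.4, 23.8, 13.9 and 18.8 CPM in T2KO-low, against 9.13, 16.7, 9.43 and 16.1 CPM in WT-low. It was at 8.27, 12.0, 10.2 and 11.4 CPM in T2KO-normal, against 30.4, 26.8, 22.8 and 23.3 CPM in WT-normal, so the genotypes overlapped in low M-CSF and stood apart in normal M-CSF. Its interaction was 1.88 ± 0.31 (adjusted p = 0.000763, edgeR), and it was one of the 2 positive genes that passed with summed pairs.

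Csf1, which encodes M-CSF itself, was a negative gene whose genotype effect was larger in normal M-CSF. It was at 12.1, 7.86, 11.5 and 10.9 CPM in T2KO-low, against 6.08, 6.81, 6.17 and 11.1 CPM in WT-low, which overlapped. In normal M-CSF it was at 26.03, 23.5, 25.5 and 23.5 CPM in T2KO-normal, against 6.53, 6.65, 7.38 and 8.18 CPM in WT-normal, which did not. The interaction was -1.29 ± 0.30 (adjusted p = 0.0114, edgeR), and the call was lost with depth as a covariate. Its receptor gene Csf1r had an interaction of 0.69 that did not pass.

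For 3 of the 494 genes the genotype effect passed the test in both media with opposite signs. Ccnd2, the D-type cyclin that answers to growth factors (chr6:127125162-127152188), was at 28.03, 31.5, 24.0 and 27.4 CPM in T2KO-low, against 32.3, 52.2, 41.9 and 41.7 CPM in WT-low. In normal M-CSF it was at 315, 267, 267 and 267 CPM in T2KO-normal, against 118, 147, 142 and 141 CPM in WT-normal. The knockout was the lower genotype in low M-CSF (-0.60) and the higher one in normal M-CSF (1.02), without overlap in either, an interaction of -1.62 ± 0.23 (adjusted p = 0.00016, edgeR). Nfkbie, an inhibitor of NF-kappaB, crossed in the same sense, at 13.8 ± 0.610 CPM in T2KO-low against 24.7 ± 4.56 CPM in WT-low, and 31.4 ± 4.15 CPM in T2KO-normal against 17.1 ± 4.25 CPM in WT-normal (SD, n = 4 each), an interaction of -1.70 ± 0.27. Nod1, a sensor of bacterial peptidoglycan, crossed in the other sense. It was at 8.43, 5.12, 8.63 and 5.53 CPM in T2KO-low, against 2.40, 3.24, 3.45 and 3.75 CPM in WT-low, and at 0.678, 0.588, 1.07 and 0.598 CPM in T2KO-normal, against 3.07, 1.74, 3.01 and 2.54 CPM in WT-normal. Its interaction was 2.83 ± 0.50 (adjusted p = 0.00137, edgeR). None of these 3 passed with summed pairs.

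Regulators of macrophage state were called in both directions. Cebpa, a transcription factor of myeloid differentiation (chr7:35119293-35121928), was at 151.1, 89.9, 120.5 and 95.7 CPM in T2KO-low, against 54.4, 39.4, 56.2 and 58.4 CPM in WT-low. It was at 12.3, 14.1, 10.96 and 17.9 CPM in T2KO-normal, against 28.3, 16.6, 18.6 and 16.2 CPM in WT-normal, an interaction of 1.67 ± 0.31 (adjusted p = 0.00177, edgeR). Its level was higher in low M-CSF in both genotypes, and the highest group was T2KO-low. The call of Cebpa was lost with summed pairs and with voom. Klf4, another myeloid transcription factor, was lower in the knockout in both media and had -1.18 ± 0.25, and Dusp4, a phosphatase of MAP kinases, had -1.36 ± 0.29. They were the called pair among 26 immediate-early factors, both negative, where 3.54% of all genes were negative. With Trem2 and Cebpa as the 2 positive ones, beside 0.898% of all genes, 25 of 27 macrophage identity genes did not pass, and the list's median was 0.02.

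The type I interferon list had a positive median of 0.67 beside -0.00 for all genes, and 1 of its 39 members passed, beside 0.898% of all genes. The count depended on the setting: 12 passed with depth as a covariate (median 1.07), 6 in the fit of all 8 groups, 14 with libraries 1 and 3 only, and 0 with summed pairs or voom. The 1 member was Ifit3, an antiviral protein with a near-identical neighbour whose reads could be split or shared. Ifit3 was at 94.2, 43.6, 34.5 and 32.7 CPM in T2KO-low, against 13.1, 17.996, 34.8 and 27.3 CPM in WT-low, and at 14.5, 15.7, 16.4 and 18.7 CPM in T2KO-normal, against 34.6, 16.5, 33.7 and 24.2 CPM in WT-normal. One T2KO-low library was far above the rest, the genotypes overlapped in both media, and the interaction of 1.87 ± 0.46 (adjusted p = 0.0193, edgeR) no longer passed without WT-low library 2, with summed pairs, with libraries 2 and 4 only and with voom. Without T2KO-low library 1 the list's median was 0.36. Among the other members, Ifit1 had 1.34, Ifi44 1.31 and Usp18 1.24.

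Of 15 neutrophil genes tested, 2 were positive, beside 0.898% of all genes, the calcium-binding proteins S100a8 (1.36 ± 0.31) and S100a9 (1.004 ± 0.24), and the list median was 1.004. Neither passed with summed pairs or voom, which left the list with 0 calls. The summed level of the list was 363 to 449 CPM in T2KO-low, 234 to 266 CPM in WT-low, 119 to 136 CPM in T2KO-normal and 106 to 131 CPM in WT-normal, and none of the 18 markers was at 0 in all libraries. S100a8 was at 90.7, 69.6, 93.1 and 64.4 CPM in T2KO-low, against 37.6, 17.8, 41.0 and 38.2 CPM in WT-low, and overlapped in normal M-CSF at 22.4, 29.4, 25.5 and 24.1 CPM in T2KO-normal and 35.7, 25.6, 26.3 and 22.2 CPM in WT-normal. Inflammatory monocyte genes summed to 1555 to 1654 CPM in T2KO-low, 1075 to 1111 CPM in WT-low, 232 to 278 CPM in T2KO-normal and 195 to 269.5 CPM in WT-normal. In T2KO-low most of this sum was F13a1, a coagulation factor subunit, with means of 1380 CPM in T2KO-low, 461 CPM in WT-low, 124 CPM in T2KO-normal and 53.2 CPM in WT-normal and an interaction of 0.36 that did not pass. Ccr2 went the other way in low M-CSF, with means of 174 CPM in T2KO-low and 597 CPM in WT-low. Of 10 monocyte genes tested, Plac8 was positive at 3.20, with group means of at most 3.72 CPM, and Ccr2 negative, beside 0.898% and 3.54% of all genes. The part of such cells in the interactions was not tested.

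**Figure D5:**
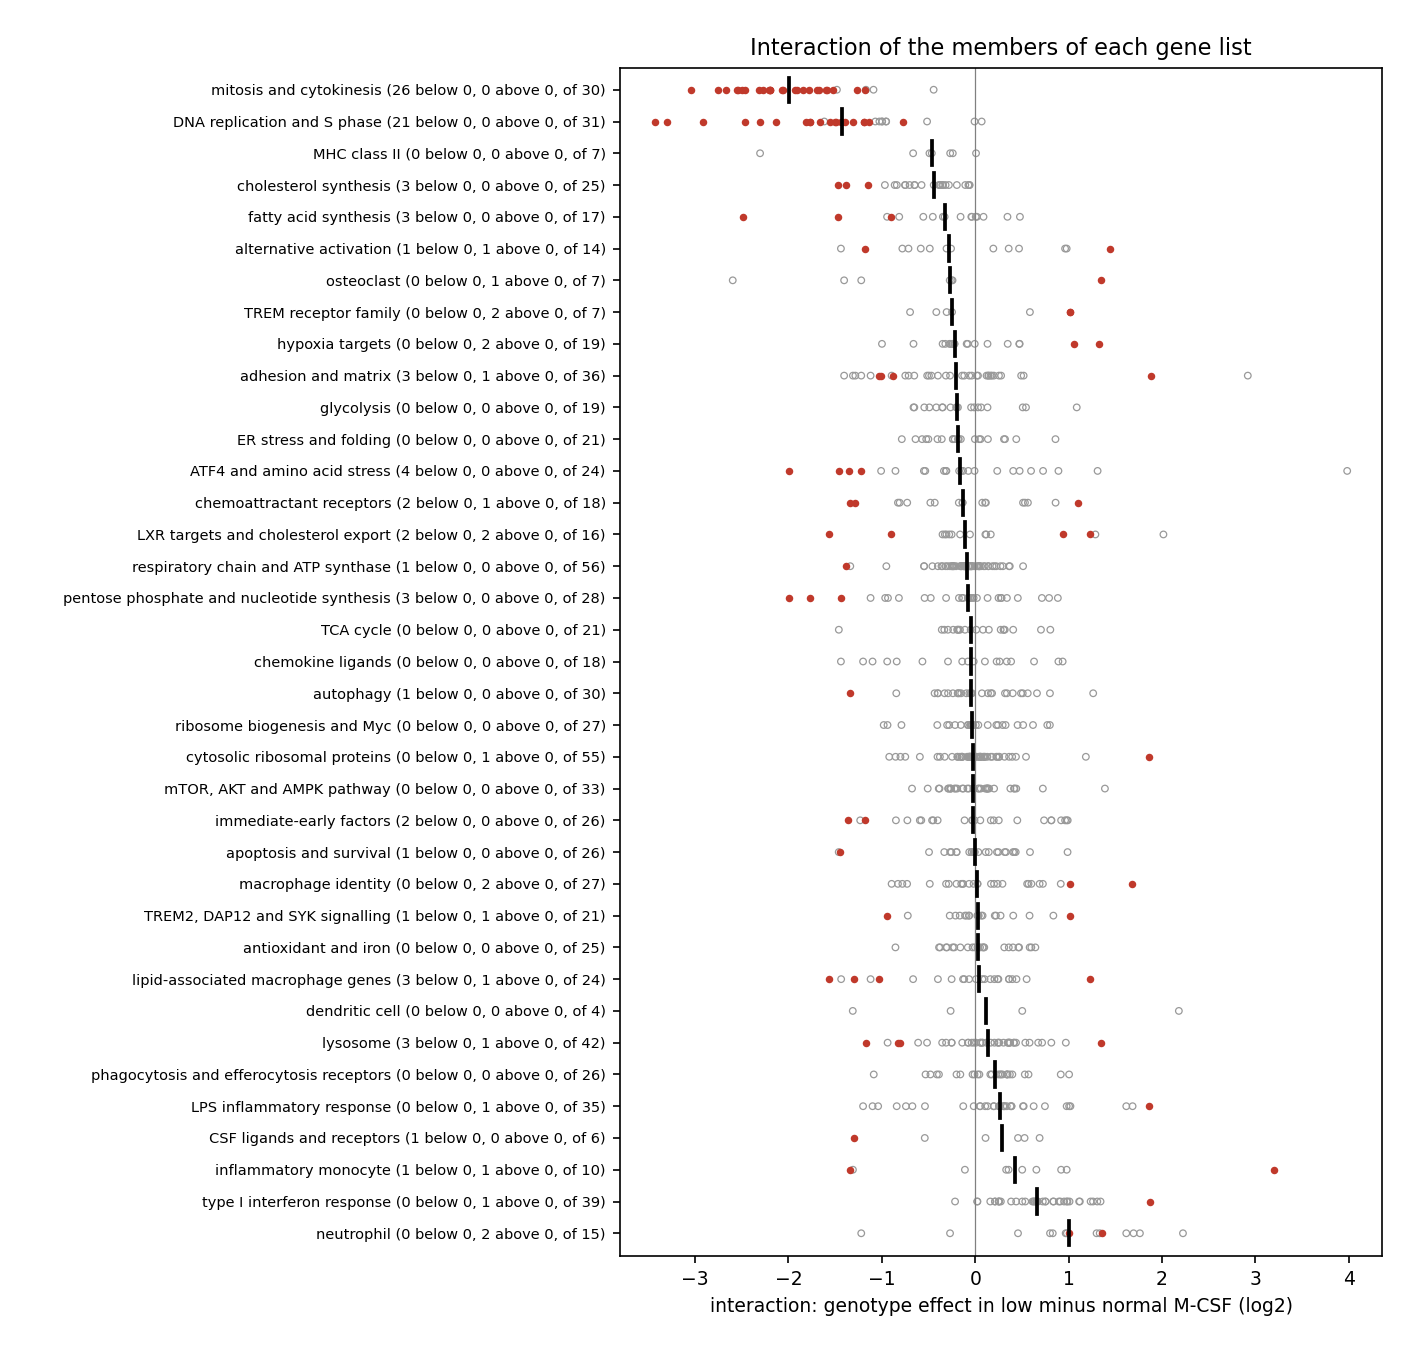
Interaction (log2) of every tested member of each gene list with at least 3 tested members. Red points passed the test, open points did not, and black bars are list medians; the replication and mitosis lists are the ones whose median lies below -1, and the neutrophil and type I interferon lists have the highest medians.

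The other positive genes were scattered over functions. Slc25a37, the mitochondrial iron importer mitoferrin-1, was at 64.5, 112, 68.1 and 143 CPM in T2KO-low, against 32.7, 34.4, 21.9 and 36.1 CPM in WT-low, and at 32.9, 25.9, 28.4 and 32.3 CPM in T2KO-normal, against 36.1, 37.9, 32.5 and 35.6 CPM in WT-normal. T2KO-low stood above the other 12 libraries, and the interaction of 1.88 ± 0.31 (adjusted p = 0.000722, edgeR) also passed with summed pairs. The higher T2KO-low values lay in libraries 2 and 4, the deeper ones of that group. With depth as a covariate the value was 1.35 (adjusted p = 0.02, edgeR). Vegfa, the vascular growth factor, and P4ha1, a collagen prolyl hydroxylase, both hypoxia targets, had 1.32 ± 0.28 and 1.05 ± 0.23. For both, the genotype effect passed in normal M-CSF and did not pass in low M-CSF: Vegfa was at 67.5 ± 10.99 CPM in T2KO-low against 76.8 ± 17.4 CPM in WT-low, and at 10.4 ± 2.15 CPM in T2KO-normal against 29.6 ± 4.63 CPM in WT-normal (SD, n = 4 each). The list's median was -0.22, and both calls were lost with depth as a covariate. Il1b, the cytokine, had 1.86 ± 0.50, the decoy for interleukin 18 Il18bp 1.89 ± 0.52, and the lectin receptor Clec10a 1.45 ± 0.38. Their calls passed in 6, 6 and 7 of the 16 fits without 1 library. Plxna4, a semaphorin receptor, and Dock6, an exchange factor for Rac and Cdc42, had 2.20 ± 0.51 and 1.91 ± 0.46. Mir142 had 1.96 ± 0.46, counted as reads over the gene, which lies within a longer host transcript, and not as mature miRNA.

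Several called values followed the library pairs. Rps23, a ribosomal protein gene with pseudogene copies, was at 1161, 4321, 1147 and 3866 CPM in T2KO-low, against 1156, 1067, 1065 and 1027 CPM in WT-low, and at 1616, 1499, 1519.6 and 1464 CPM in T2KO-normal, against 2349, 2206, 2373 and 2202 CPM in WT-normal. Libraries 2 and 4 of T2KO-low, the deeper ones of that group, held the high values, and the call (1.86 ± 0.43) was lost with depth as a covariate and with summed pairs. Qtrt2, a tRNA-modifying enzyme subunit (2.41 ± 0.58), and Hcfc2, a host cell factor (1.94 ± 0.49), split by the same libraries. Hcfc2 also lost its call without T2KO-low library 4, T2KO-normal library 2, WT-low library 1 or 3, or WT-normal library 2. Atp6v1e1, a proton pump subunit, was at 195, 391.6, 195 and 352 CPM in T2KO-low, against 432, 346, 449 and 270.2 CPM in WT-low, with -1.17 ± 0.32 and a call that passed in 6 of 16 fits. Scpep1os, a transcript opposite to Scpep1 whose reads cannot be told from that gene's since the strand setting of the counting is not given, had the most negative value, -9.05 ± 1.97. It was at 5.02 and 11.1 CPM in T2KO-normal libraries 1 and 3, 7.53 and 14.0 CPM in WT-low libraries 1 and 3, and at most 1.45 CPM in the other 12 libraries.

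The remaining named genes are given singly. Klra2, of the Ly49 receptor family, whose near-identical members can share reads, had -3.65 ± 0.75. It was at 0, 0.795, 0.332 and 0.922 CPM in T2KO-low, against 4.80, 2.11, 12.5 and 4.59 CPM in WT-low. Map1a, a microtubule-associated protein, had -3.49 ± 0.94 with a call that passed in 8 of 16 fits. It was at 0.366, 0.0883, 0.111 and 0 CPM in T2KO-low, against 7.21, 9.08, 8.53 and 8.76 CPM in WT-low. In T2KO-normal Map1a was at 1.49, 0.196, 0.322 and 0.399 CPM, and its genotype effects were -6.16 and -2.67. The size of both interactions depends on how near-zero counts are handled. Lat2, an adaptor beside SYK, had -0.94 ± 0.22 and was, with Trem2, the called pair among 21 genes of TREM2, DAP12 and SYK signalling. Over all genes 3.54% were negative and 0.898% positive. B430306N03Rik, in the TREM gene cluster (chr17:48315279-48326511), had 1.02 ± 0.25 and lost its call without T2KO-normal library 3. Among 42 lysosomal genes, Ctsc, the dipeptidyl peptidase cathepsin C, had -0.83 ± 0.20, Gla, the enzyme lost in Fabry disease, -0.80, and Atp6v0d2, a proton pump subunit of osteoclasts, 1.35 ± 0.29. With Atp6v1e1, given above, the list had 3 negative calls and 1 positive one, beside 3.54% and 0.898% of all genes. Wipi1, which binds phosphoinositides on forming autophagosomes, had -1.34 ± 0.26 and was the 1 called of 30 autophagy genes, near the 3.54% of all genes that were negative. Ndufc1, of respiratory complex I, had -1.39 ± 0.31 and was the 1 called of 56 respiratory genes, a share under the 3.54% of all genes that were negative. Bcl2, the survival factor, had -1.45 ± 0.40 and passed in 4 of 16 fits. Of the 59 called genes named by rule, 14 passed with summed pairs: Uhrf1, Mcm5, Pclaf, Tpx2, Chek1, Ccna2, Fads2, Ccne2, Mthfd2, Esco2, Slc25a37, Mmp13, Recql4 and Klra2. List members given beyond the 2 per list and direction that the naming rule takes, such as Mcm3, Top2a, Hsd17b7, Slc7a1, Psat1, Gla, Adam8, Plac8 and the members that did not pass, were named after their values were seen.

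No interaction was called among 19 glycolysis genes, 21 TCA cycle genes, 21 genes of ER stress and folding, 27 of ribosome biogenesis and Myc, 33 of the mTOR, AKT and AMPK pathways, 18 chemokine ligands, 25 of antioxidant defence and iron, 26 phagocytic receptors and 7 of MHC class II. Their medians ranged from -0.46 for MHC class II to 0.21 for phagocytic receptors. Single calls already named were the ones in the lists of 35 LPS response genes (Il1b), 55 ribosomal proteins (Rps23), 7 osteoclast genes (Atp6v0d2), 6 CSF ligands and receptors (Csf1) and 26 apoptosis genes (Bcl2). The 14 genes of alternative activation held Clec10a and Klf4, the 7 TREM receptors Trem2 and B430306N03Rik, and the 24 lipid-associated macrophage genes Apoe against Lpl, Csf1 and Spp1. The 4 dendritic cell genes and the 1 erythroid and megakaryocyte gene tested had no call. Every list count here stands beside 3.54% negative and 0.898% positive calls over all genes. Counts like these rest on a threshold, and with 4 libraries per group a missing call does not show that the genotype effect was equal in the media.

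A ratio of ratios can differ in sign from a difference of differences, so each called interaction was also computed on mean CPM. The sign was the same for 371 of 394 negative and 98 of 100 positive genes. Of the 59 called genes named by rule, Trem2, Atp6v0d2, Spp1, Dusp4 and Itgb7 had the other sign. Rrm2, given above beyond that rule, had it too, with a difference of differences of 4.44 CPM. Spp1 was at 651 ± 98.8 CPM in T2KO-low against 1734 ± 462 CPM in WT-low, and at 5456 ± 521 CPM in T2KO-normal against 7142 ± 1510.3 CPM in WT-normal (SD, n = 4 each). The genotype gap in Spp1 was the larger share of the WT level in low M-CSF and the larger number of CPM in normal M-CSF. In the cell division lists the CPM scale gave a value below 0 for 25 of 31 replication genes and 28 of 30 mitotic genes.

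With LPS, the same interaction was called for 463 of 10144 genes (4.56%), in a comparison added after seeing the data. Of the 394 negative genes, 378 could be tested with LPS, 267 had the same sign there, 61 passed with the same sign and 5 with the other, and their median was -0.56. Of the 100 positive genes, 98 could be tested, 71 had the same sign and 5 passed, with a median of 0.22. Over all genes tested with LPS the median was -0.04. Shares of all genes by sign with LPS were not computed, so these counts by sign have no background beside them. The difference between the interactions without and with LPS was tested too. The 394 and 100 genes were chosen by their values without LPS, which also enter this difference. A higher share among them, and medians nearer 0 with LPS, are therefore partly set by that choice. The difference passed for 329 of 11244 genes (2.93%), among them 72 of the 394 and 17 of the 100. Tpx2 was one, with 0.34 with LPS and a difference of -3.30 (adjusted p = 0.000208, edgeR), and Uhrf1 another, with 0.08 and a difference of -3.29 (adjusted p = 0.0032, edgeR). Mcm5 and Fads2 had -2.29 and -2.43 with LPS, close to their values without it, and the differences of 0.08 and 0.05 did not pass. Of the mitotic list 13 of 30 were negative with LPS and 2 differences passed; of the replication list 3 of 31 were negative, 1 was positive and 5 differences passed.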

How the data were processed

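Gene counts of 32 libraries were deposited by the authors as 1 table of raw counts, and the 16 columns without LPS were used here. Per the labels' protocols, mRNA was reverse transcribed with barcoded oligo-dT primers, pooled by Actb qPCR, amplified for 12 PCR cycles and made into strand-specific libraries; no molecular identifiers are mentioned, so floors cover counting error only. Per the submitters' processing notes, STAR, HTSeq, DESeq2 and mm10 were used; versions, annotation and strand setting are not given in the sources used here. Of 24885 identifiers, 23969 were named through RefSeq (GRCm38.p6), holding 99.5% of counts. Genes passing edgeR's default expression filter were fitted in edgeR 4.0.16 (R 4.3.3; TMM, quasi-likelihood F test, 4 groups, Benjamini-Hochberg threshold 0.05). CPM values are TMM-scaled. The procedure was tested on simulated data. The simulated libraries were drawn independently, without the resemblance within library pairs, so they cannot show how the test behaves under it. Alternatives used RLE factors, other filters, all 8 groups, replicate blocks, library pairs, DESeq2 1.42.0, limma 3.58.1 voom and omitted libraries. Genes named were those with at least 5 CPM in a group: the 8 most negative and 8 most positive, up to 6 with opposite genotype effects, and up to 2 called per list and direction, plus Trem2 and Treml1; 1 gene the rule named is not reported here. The comparison, the lists and their members were chosen with earlier results of these data known.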

Additional observations from a re-analysis of the deposited data

Results flagged for a closer look

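The interaction is itself a test of whether the genotype effect differs between the media, so all 494 called genes and the 59 named ones among them belong here. All 59 named values are the genotype effect in low minus that in normal M-CSF on the log2 scale. The negative named values were Uhrf1 -3.30, Mcm5 -2.31, Pclaf -3.61, Tpx2 -3.05, Chek1 -3.55, Lpl -1.56, Stard4 -1.47, Ccna2 -2.27, Fads2 -2.48 and Ccnd2 -1.62. Further negative values were Ccne2 -3.43, Mthfd2 -1.99, Nfkbie -1.70, Esco2 -3.47, Gpr183 -1.28, Scd2 -1.47, Tyms -1.77, Recql4 -5.17, Ccr2 -1.34 and Wipi1 -1.34. Also negative were Klra2 -3.65, Asns -1.46, Klf4 -1.18, Dusp4 -1.36, Scpep1os -9.05, Ndufc1 -1.39, Csf1 -1.29, Lat2 -0.94 and Ctsc -0.83. The last negative values were Spp1 -1.03, Itgb7 -1.01, Map1a -3.49, Atp6v1e1 -1.17, Bcl2 -1.45 and Srebf1 -0.90. The positive named values were Apoe 1.23, Slc25a37 1.88, Mmp13 1.88, Nod1 2.83, Cebpa 1.67, Vegfa 1.32, Atp6v0d2 1.35, P4ha1 1.05, Rps23 1.86 and Trem2 1.01. Further positive values were S100a8 1.36, Plxna4 2.20, Mir142 1.96, S100a9 1.004, Qtrt2 2.41, Dock6 1.91, B430306N03Rik 1.02, Ifit3 1.87, Hcfc2 1.94 and Clec10a 1.45. The last positive values were P2ry12 1.10, Il1b 1.86, Il18bp 1.89 and Pltp 0.94.

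In 21 of 240 groups of 4 libraries, 1 library lay far from the other 3 by Dixon's criterion, which chance alone reaches in about 1 of 20 groups. These were Mcm5 at 12.3 CPM in WT-low library 4, Tpx2 at 7.88 CPM in T2KO-low library 1, Tpx2 at 190 CPM in WT-normal library 1, Ccnd2 at 315 CPM in T2KO-normal library 1, Esco2 at 83.2 CPM in WT-low library 2 and Gpr183 at 211 CPM in WT-low library 4. Further single libraries were Tyms at 3.32 CPM in T2KO-low library 3, Tyms at 3.54 CPM in WT-low library 4, Ccr2 at 525 CPM in WT-low library 4, Klf4 at 54.4 CPM in T2KO-normal library 1, Dusp4 at 82.9 CPM in WT-normal library 1 and Ndufc1 at 338 CPM in WT-low library 2. Others were Ndufc1 at 176 CPM in WT-normal library 1, Csf1 at 11.1 CPM in WT-low library 4, S100a8 at 17.8 CPM in WT-low library 2, Plxna4 at 0.399 CPM in T2KO-normal library 4, B430306N03Rik at 29.5 CPM in T2KO-normal library 4 and Clec10a at 9.37 CPM in T2KO-normal library 4. The last were Clec10a at 9.61 CPM in WT-low library 1, Map1a at 1.49 CPM in T2KO-normal library 1 and Bcl2 at 9.36 CPM in T2KO-low library 2.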

How the results depend on the processing

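The 494 calls, 100 positive and 394 negative, depended most on how the 4 libraries of a group were treated, and the cause was not tested. Summed pairs gave 117 calls (2 positive, 115 negative), voom with a pair correlation of 0.521 gave 83 (4 and 79), libraries 1 and 3 only 2815 (960 and 1855) and libraries 2 and 4 only 2217 (1243 and 974), so the negative share, 79.8%, became 98.3%, 95.2%, 65.9% and 43.9%. DESeq2 gave 803 (208 and 595), the fit of all 8 groups 158 positive genes and a negative share of 69.6%, and log2 depth, added after seeing the data, 176 positive genes; the depth term itself was called for 0 genes by edgeR, with 2178 at an unadjusted p under 0.05. The share of calls with the larger genotype effect in low M-CSF, 90.3%, became 86.2% with DESeq2, 99.1% with summed pairs, 96.4% with voom, 70.3% and 52.9% with libraries 1 and 3 only and 2 and 4 only, and 93.0% (93.05) with depth. Leaving out 1 library gave 359 to 504 calls, 59 to 120 positive (59 without T2KO-normal library 3 and 66 without WT-low library 2), 300 to 412 negative and a share of 87.3% to 92.3%. Same-numbered libraries of different groups correlated at -0.43 to 0.38, over 0.1 in 8 of 24, which misses the bar for pairing; T2KO-low against WT-normal was over 0.1 for all 4 numbers and T2KO-low against T2KO-normal negative for all 4. The replicate block gave 406 calls (72 and 334). RLE factors gave 516, no filter 511 and at least 10 CPM in 4 libraries 508. Of the 59 named calls, 45 passed in each fit that left out 1 library, 43 with depth, 18 with voom and 59 with DESeq2. Treml1, not called, was reversed to -0.0846 in libraries 2 and 4 only. Depth limits genes near 0.198 to 0.626 CPM.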

Other observations

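Called genes outside the lists, chosen after their values were seen, included the following. Ccnd1, a D-type cyclin, was at 106 ± 15.3 CPM in T2KO-low against 342 ± 67.3 CPM in WT-low, and at 2739 ± 252 CPM in T2KO-normal against 1903 ± 456 CPM in WT-normal (SD, n = 4 each), an interaction of -2.21 ± 0.26 (SE, adjusted p = 3.31e-05, edgeR). Foxm1, a transcription factor of mitotic genes, had -2.29 ± 0.35, and the repair gene Brca1 had -2.67 ± 0.42. Ezh2, the methyltransferase of histone H3 in Polycomb repression, had -1.97 ± 0.35.

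Other called genes, picked in the same way, had no list and no test as a group. The calcium-binding proteins S100a4, S100a6 and S100a10 had -2.04, -1.62 and -0.81, the intermediate filament gene Vim -1.47 and the annexin Anxa1 -1.64. S100a4 was at 165 ± 23.1 CPM in T2KO-low against 921 ± 151.3 CPM in WT-low, and at 1633 ± 161 CPM in T2KO-normal against 2216 ± 254 CPM in WT-normal (SD, n = 4 each). The basement membrane collagens Col4a1 and Col4a5 had -3.37 and -2.74, the adhesion molecule L1cam -2.68, the sialophorin gene Spn -2.44 and urokinase Plau -2.02. On the positive side, Entpd1, the ectoenzyme CD39 that degrades extracellular ATP, was at 417 ± 241 CPM in T2KO-low against 149 ± 19.3 CPM in WT-low, and at 19.7 ± 1.71 CPM in T2KO-normal against 21.0 ± 2.01 CPM in WT-normal, an interaction of 1.58 ± 0.39. Mdm2, the ubiquitin ligase of p53, had 0.72, and reads over the Mir34a gene had 1.72.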
